A study of Mus musculus with 32 samples.

Results

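The genes described here are 10 that are known from neutrophil granules and neutrophil precursors, namely Camp, Ngp, Ltf, Lcn2, Mpo, Elane, Prtn3, Ctsg, Cebpe and Lyz2, taken by their names in the arrays' annotation out of 15158 genes tested. They were measured by 12 probes on Agilent 1-colour arrays, 1 array per mouse, in whole blood of 32 male C57BL/6 mice drawn 24 h after X-rays or sham exposure. WT mice received 8 Gy (n = 5) or sham exposure (0 Gy, n = 6). ATM-/- mice, which lack the DNA damage kinase ATM, received 4 Gy (n = 6) or sham exposure (0 Gy, n = 5), and Scid mice, whose mutation impairs the joining of broken DNA ends, received 3 Gy (n = 5) or sham exposure (0 Gy, n = 5). The dose was set for each genotype by its lethality, so genotype and dose change together. All blood came by cardiac puncture into a lysing RNA stabiliser and was depleted of globin RNA, and the ages of the mice are not given in the sources used here.

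Neutrophils fill their granules in order while they mature in the marrow. Promyelocytes make the primary (azurophil) granules, which hold myeloperoxidase (Mpo) and the serine proteases neutrophil elastase (Elane), proteinase 3 (Prtn3) and cathepsin G (Ctsg). Myelocytes then make the secondary (specific) granules, which hold the antimicrobial peptide precursor Camp, neutrophilic granule protein (Ngp), lactotransferrin (Ltf) and lipocalin 2 (Lcn2), under the control of the transcription factor Cebpe. Most of these transcripts are low in the mature neutrophils of the blood, whereas Lyz2, a lysozyme, is also a gene of monocytes and macrophages. In bulk blood, fewer cells of a type and less RNA per cell cannot be told apart.

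Of the 10 genes, 7 were detected well enough to be tested (Camp, Lcn2, Elane, Prtn3, Ctsg, Cebpe and Lyz2), and 3 were not (Ngp, Ltf and Mpo). In irradiated WT blood the Camp signal, relative to the rest of the array, was lower by 1.40 on the log2 scale, and it was the only one of the 7 that passed the test in any of the 7 comparisons. Prtn3 and Lyz2 were measured higher by 1.39 and 1.31 in WT at 8 Gy without passing it. Which of these 3 changes passed the test depended on the setting of the fit, the scaling of arrays of unequal brightness among them, while their directions in WT were the same under every setting tried. The direction of the small Lcn2 change in WT was the opposite under 10 of 17 other settings. The signal of the Camp probes ran in parallel with that of many unrelated genes whose probes share a run of 7 bases with them.

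Brightness differed between the groups. The 75th percentile of the processed signal, to which each array was scaled, was 127 to 232 on the WT 8 Gy arrays and 24.2 to 203 on the WT 0 Gy arrays. It was 17.7 to 111 in ATM-/- at 4 Gy and 28.1 to 95.8 in ATM-/- at 0 Gy, and 20.2 to 63.9 in Scid at 3 Gy and 17.2 to 60.5 in Scid at 0 Gy. Between 20.02 and 58.6% of the probes were well above background on an array. As a check of the tissue, all 15 listed markers of mature neutrophils (among them S100a8, S100a9, Retnlg and Mmp9) and 14 of 15 monocyte markers (without Ly6c2) passed the filter on dim probes. Transcripts of liver (11 of 15 kept, among them Alb), which are no blood cell genes, had a mean log2 level of 5.41 to 8.24 on 5 arrays and of -0.05 to 4.54 on the others. Those 5, more than 3 median absolute deviations above the median, were replicates 1 and 2 of WT at 8 Gy, replicate 5 of WT at 0 Gy and replicates 3 and 5 of ATM-/- at 4 Gy.

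Camp, Lcn2, Elane and Lyz2 were well above background on all 32 arrays. Prtn3 and Cebpe were so on 25 arrays each and Ctsg on 28. Prtn3 was detected on 5 of 5 arrays in WT at 8 Gy and on 3 of 6 at 0 Gy, on 4 of 6 in ATM-/- at 4 Gy and on 5 of 5 at 0 Gy, and on 4 of 5 in either Scid group. Cebpe was detected on 5 of 5 and 5 of 6 arrays in WT at 8 and 0 Gy, on 4 of 6 and 3 of 5 in ATM-/- at 4 and 0 Gy, and on 3 of 5 and 5 of 5 in Scid at 3 and 0 Gy.

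**Figure D1:**
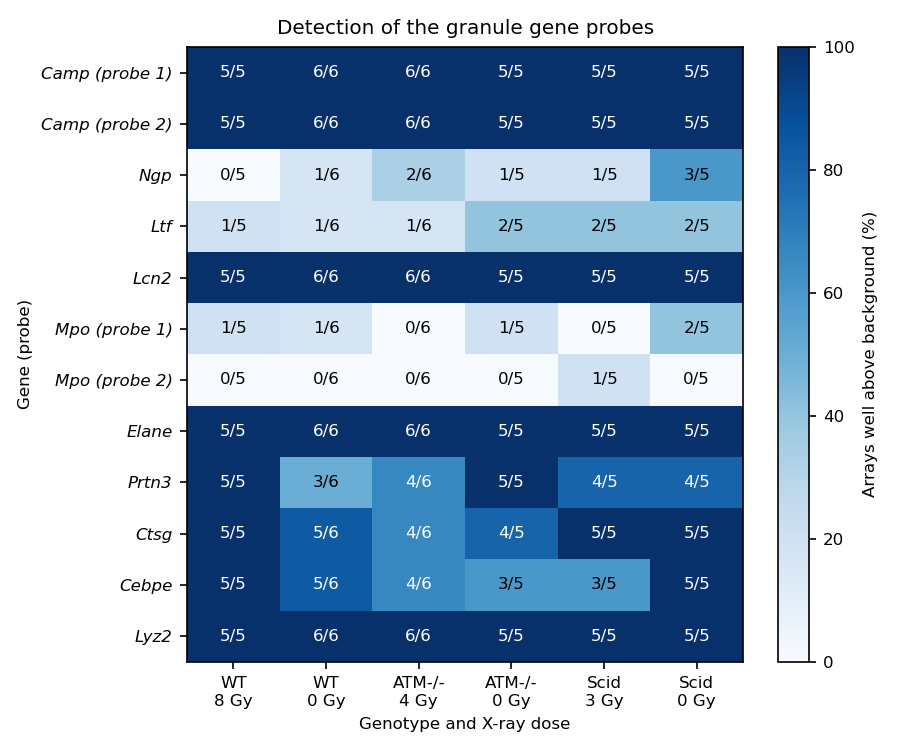
Detection of the 12 probes (rows) in the 6 groups (columns); each cell gives the arrays well above background over the arrays in the group, and its colour their percentage. Camp, Lcn2, Elane and Lyz2 were detected on every array, while Ngp, Ltf and Mpo reached at most 3 arrays in a group.

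Ngp, Ltf and Mpo were mostly not well above background. Ngp was so on 8 of 32 arrays, with 0 of 5 in WT at 8 Gy and 1 of 6 at 0 Gy, 2 of 6 in ATM-/- at 4 Gy and 1 of 5 at 0 Gy, and 1 of 5 in Scid at 3 Gy and 3 of 5 at 0 Gy. The WT arrays had processed Ngp signals of 3.72 to 16.0 after 8 Gy, against 2.54 to 25.2 after sham exposure, which overlap, and no fold is given for it. Ltf was well above background on 9 arrays. The 2 Mpo probes were so on 5 arrays and on 1 array, and no fold is given for Mpo. By a looser flag, a signal positive and significant against its background, Ngp was detected on 27 arrays, Ltf on 26 and the brighter Mpo probe on 25. These are genes of the same granules as the detected members, so that of the secondary granule genes Camp and Lcn2, and of the primary granule genes Elane, Prtn3 and Ctsg, had levels that could be compared. Of 24 further granule genes listed with the members, 6 (Fcnb, Ms4a3, Cd177, Itgb2l, Olfm4 and Bpi) also did not pass the filter, and 18 did.

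Camp encodes the cathelicidin precursor. Its processed signal was 185, 537, 425, 271 and 254 on the 5 WT 8 Gy arrays, against 178 to 457 with a median of 273 on the 6 WT 0 Gy arrays. Before scaling, the 2 groups covered much the same range. Relative to the array's 75th percentile, the log2 level was -0.32, 1.21, 1.47, 0.97 and 1.003 at 8 Gy, against a lowest of 1.17, a median of 2.44 and a highest of 3.08 at 0 Gy. After scaling, 3 of 5 irradiated arrays lay below every control, and the groups still overlapped.

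The mean Camp level was 0.86 ± 0.69 (SD, n = 5) in WT at 8 Gy and 2.27 ± 0.80 (SD, n = 6) at 0 Gy. The log2 change was -1.40 (SE 0.43; limma, adjusted p = 0.0412). This was 1 of 7 members called in WT, all lower, beside 7.2% of all genes called and 6.06% called lower. The other Camp probe, which overlaps the first over 40 bases, changed by -1.58 (SE 0.47; limma over 18368 probes, adjusted p = 0.0321). The call was lost under 13 of the 17 other settings of the fit, at log2 changes between -1.49 and -0.12 over all of them. It was also lost when any of 8 WT arrays was left out, namely replicates 1, 2, 4 and 5 at 8 Gy or 1, 3, 4 and 6 at 0 Gy, with adjusted p from 0.0119 to 0.176 over the leave-outs (limma). Within scan days, the difference was -2.61 on the first (1 irradiated and 3 control arrays) and -0.64 on the second (3 irradiated and 2 control arrays).

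In ATM-/- blood the Camp level ran from 0.09 to 2.78 with a median of 1.69 at 4 Gy (n = 6), against 2.38, 1.54, 2.34, 1.84 and 1.94 at 0 Gy. The change was -0.42 (SE 0.43; limma, adjusted p = 0.784). In Scid it was 2.57, 2.05, 1.23, 1.93 and 1.62 at 3 Gy, against 3.82, 2.90, 2.39, 1.60 and 2.87 at 0 Gy. The groups overlapped in both genotypes, and the Scid change of -0.84 (SE 0.45; limma, adjusted p = 0.578) did not pass the test.

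**Figure D2:**
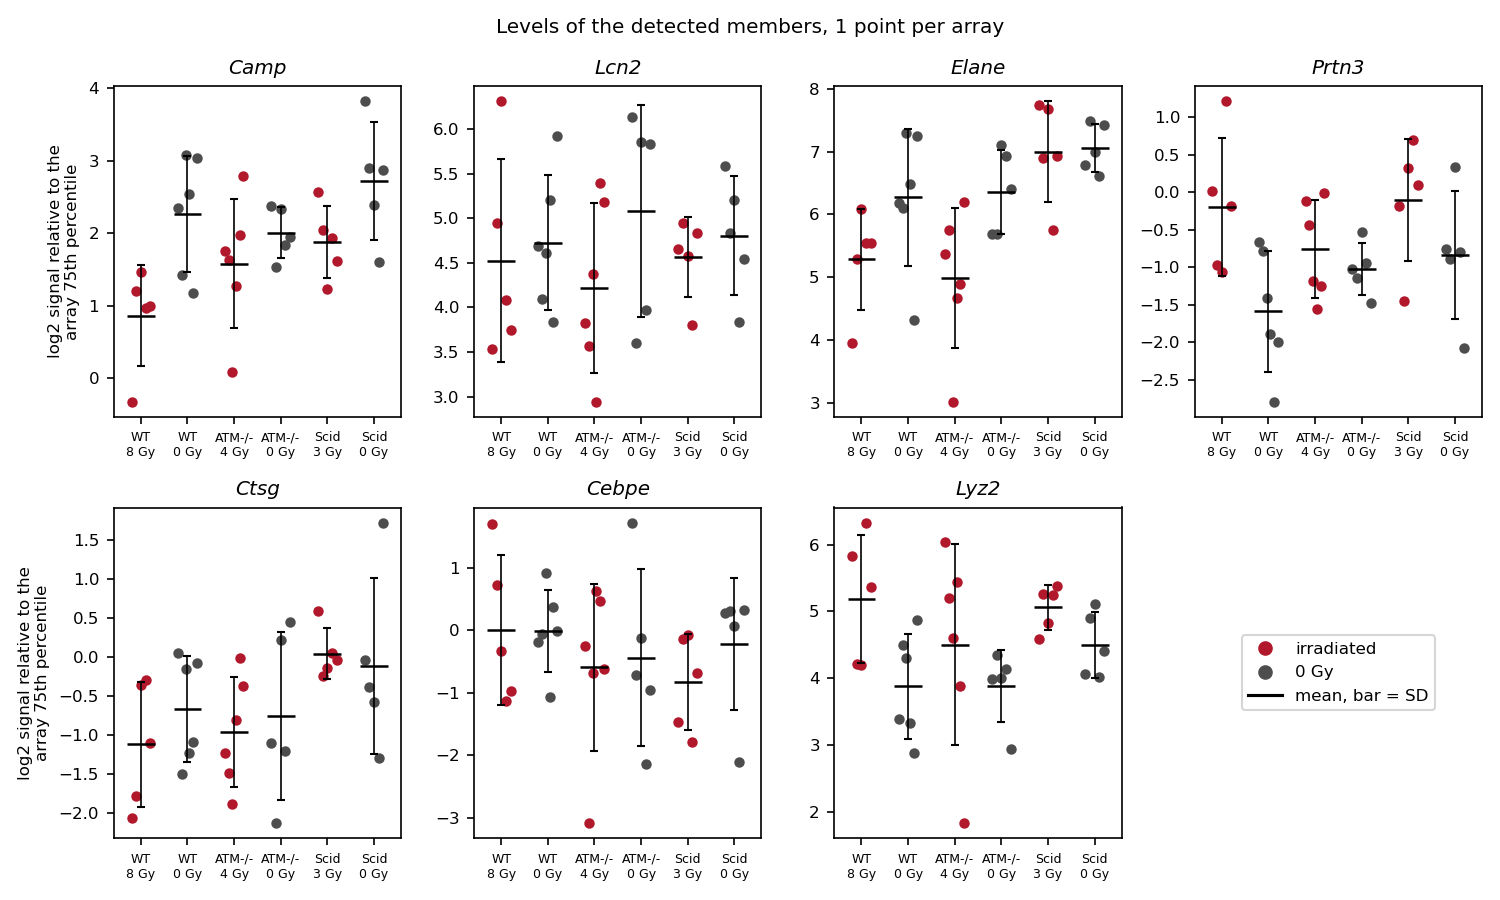
Levels of the 7 detected members as log2 signal relative to the 75th percentile of the array, by genotype and dose (points are arrays, lines group means, bars SD; each panel has its own axis). In WT the Camp mean is 0.86 at 8 Gy and 2.27 at 0 Gy, while the Prtn3 mean is -0.20 at 8 Gy and -1.59 at 0 Gy, with overlapping arrays in both.

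Over the 32 arrays, the Camp level correlated with the mean level of 15 erythroid markers (Pearson r = 0.79) and with the log2 75th percentile of the array (r = -0.74). With the mature neutrophil markers r was 0.27. All of these come from the same arrays and share their scaling. The erythroid markers fell in WT blood (11 of 15 called lower, median change -3.63 against -0.02 over all genes), with mean levels of -0.24 to 1.36 at 8 Gy, against 2.16 to 4.32 at 0 Gy. The part of brightness and of the erythroid markers in the Camp result was not tested beyond the fit with brightness as a covariate, in which the Camp change in WT was -0.42 (limma, adjusted p = 0.746).

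The genes most like Camp over the 32 arrays were not neutrophil genes. They included Wwox, an oxidoreductase (r = 0.96), Gabrr1, a GABA receptor subunit (r = 0.94), and Grm5, a glutamate receptor (r = 0.93). The letters of the probes are shown here because they are what the Camp probes share with several of these genes. Each line gives 30 bases of a 60-base probe, 5′ to 3′, with the run GCCTGCC in capitals.
Camp, first probe: cagagtagtagGCCTGCCttggcctgtttc
Camp, second probe: cggagcagtagGCCTGCCttggcctgtttc
Wwox: ctgctgccgttGCCTGCCatccgaggaggc
Gabrr1: tagtcactgttGCCTGCCtttccaccacgg
Il24: atgctgactgaGCCTGCCcaactttttgtg
The Camp probes lie at chr9:109749911-109749970 and chr9:109749901-109749950 on the minus strand. The Wwox probe is at chr8:117875605-117875664 and the Gabrr1 probe at chr4:33250489-33250548, both on the plus strand, and the Il24 probe (Il24 is an interleukin) is at chr1:132783875-132783934 on the minus strand. Coordinates are those of mm9 in the scanner files, and exon or UTR positions were not analysed here.

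GCCTGCC was the most frequent of the 54 runs of 7 bases of the Camp probe among its nearest genes, searched on the probe's own strand after their likeness was known. It stood in the probes of 25 of the 100 genes nearest to Camp (r of 0.85 or more), and in 88 of all 14891 genes compared (0.591%). The median r with Camp was 0.76 over those 88 genes and 0.10 over the 14781 genes whose probe held neither the run nor its reverse complement. For the 22 genes whose probe held the reverse complement alone, the median r was 0.19. An r over 0.5 was found for 80.7% of the genes with the run and for 25.7% of those with neither.

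Probes with the run were also detected more widely than others. Of 109 probes that held it, 80 were well above background on all arrays and 1 on none, where of all 39429 probes 5831 were so on all arrays and 7799 on none. In WT blood the genes with the run had a median log2 change of -0.92, against -0.02 for genes with neither, and 23 of 88 were called lower (26.1%), against 5.94%. In a fit of only the 5162 genes with probes detected on all arrays, the median change in WT was -0.41, and 907 were called lower. Genes with the run were not compared with genes of like detection, and the run itself was chosen by likeness to Camp over these same arrays. A fall in WT beside that of Camp thus follows in part from the choice, and these differences cannot be credited to the run alone. The same holds for Wwox, Gabrr1 and Il24, picked for their high r with Camp. Wwox changed by -1.58 (SE 0.43; limma, adjusted p = 0.0167), Gabrr1 by -1.48 (SE 0.40; limma, adjusted p = 0.0166) and Il24, which did not pass the test, by -1.32 (SE 0.45; limma, adjusted p = 0.0727), beside -1.40 for Camp. The median change of genes with the run was -0.55 in ATM-/- and -0.32 in Scid, where none of them was called. The part of the shared letters in the Camp signal was not tested.

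**Figure D3:**
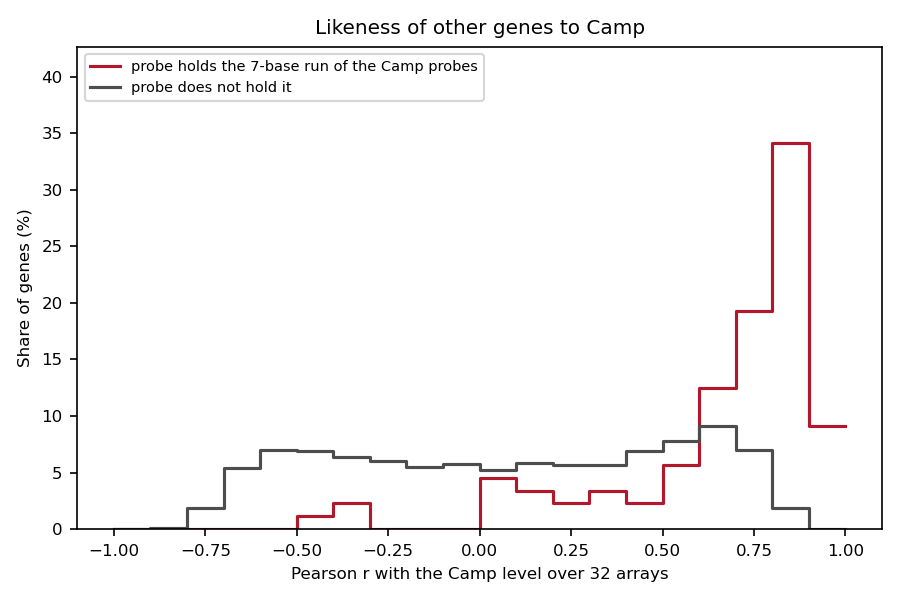
Share of genes (%) by their Pearson r with the Camp level over 32 arrays, in steps of 0.1, for 88 genes whose probe holds the 7-base run of the Camp probes and for the other genes. Genes with the run lie mostly above 0.5, with a median of 0.76.

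For no other detected member did a 7-base run recur as often among its nearest genes. The most frequent run was in 6 of 100 for Elane, Ctsg and Cebpe, in 5 for Lcn2, in 4 for Lyz2 and in 3 for Prtn3. Runs of the Elane and Ctsg probes nevertheless also went with likeness over all genes. The median r with Elane was 0.66 over 81 genes with CTCCCCC, against 0.11 over all genes, and the median r with Ctsg was 0.56 over 69 genes with GACCTGC and 0.50 over 178 with CCTGTCT, against 0.03 over all genes.

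Lcn2, a siderophore-binding protein of the secondary granules that is also made in inflamed tissue, was bright in every group. Its level was 3.53, 4.94, 6.31, 4.08 and 3.75 in WT at 8 Gy, against 3.84 to 5.92 with a median of 4.65 at 0 Gy. The irradiated arrays spread across the whole control range and beyond it on both sides. The change was -0.20 (SE 0.52; limma, adjusted p = 0.850), with a 95% interval of -1.27 to 0.86.

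In ATM-/- the Lcn2 level was 2.94 to 5.40 with a median of 4.10 at 4 Gy, against 6.13, 3.61, 5.85, 3.97 and 5.83 at 0 Gy, a change of -0.86 (SE 0.52; limma, adjusted p = 0.552). In Scid it was 4.66, 4.94, 4.57, 3.80 and 4.84 at 3 Gy, against 5.59, 4.84, 5.20, 3.83 and 4.54 at 0 Gy, a change of -0.24 (SE 0.55; limma, adjusted p = 0.945). Across the arrays, the gene nearest to Lcn2 was Scrg1 (r = 0.81). Its 5 nearest also held Retnlg, a secreted protein of mature mouse neutrophils (r = 0.76), and Pram1, an adaptor protein of granulocytes (r = 0.75). The others were 5430425K12Rik and Crispld2 (r = 0.75 each). The r of Lcn2 was 0.57 with the mean of the mature neutrophil markers and -0.07 with that of the granulocyte transcription factors and receptors. Lcn2 and Camp, of the same granule class, had r = 0.52. With the primary granule genes Elane, Ctsg and Prtn3, r was 0.72, 0.60 and -0.21 for Camp and 0.39, 0.43 and -0.17 for Lcn2. Likeness thus did not follow the granule class.

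Cebpe, the transcription factor of the secondary granule stage, varied widely within groups. Its level was 1.70, 0.72, -0.33, -1.12 and -0.98 in WT at 8 Gy, against -1.07 to 0.91 with a median of -0.04 at 0 Gy, and the change was 0.01 (SE 0.63; limma, adjusted p = 0.996). In ATM-/- it was -3.08 to 0.62 with a median of -0.44 at 4 Gy, against 1.72, -0.71, -0.12, -2.13 and -0.96 at 0 Gy. In Scid it was -1.46, -0.14, -0.08, -1.79 and -0.69 at 3 Gy, against 0.28, 0.31, 0.07, -2.10 and 0.32 at 0 Gy.

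Neither the ATM-/- change of Cebpe (-0.15, SE 0.63; limma, adjusted p = 0.965) nor the Scid change (-0.61, SE 0.66; limma, adjusted p = 0.857) passed the test. The r of Cebpe was 0.55 with the mean of the mature neutrophil markers and 0.59 with that of the other granule genes. With Camp and Lcn2, genes of the program it drives, r was 0.04 and 0.28. The lists are means over many genes, some of them in both lists, so these values are not of like kind.

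Elane and Prtn3 encode elastase and proteinase 3 of the primary granules, and their probes lie 6216 bases apart on chromosome 10, at chr10:79350902-79350961 and chr10:79343869-79344685. Elane had levels of 3.95, 5.28, 6.09, 5.55 and 5.55 in WT at 8 Gy, against 4.32 to 7.30 with a median of 6.33 at 0 Gy. In ATM-/- it had 3.02 to 6.20 with a median of 5.13 at 4 Gy, against 5.69, 5.68, 7.10, 6.92 and 6.40 at 0 Gy. In ATM-/-, 4 of 6 irradiated arrays lay below every control, and in WT 1 of 5 did.

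The Elane change was -0.98 (SE 0.51; limma, adjusted p = 0.271) in WT and -1.37 (SE 0.51; limma, adjusted p = 0.221) in ATM-/-, and neither passed the test. With array brightness as a covariate the ATM-/- change was -1.53 (limma, adjusted p = 0.0457), and with scan day as a block it was -1.17 (limma, adjusted p = 0.710). Within scan days it was -0.97 on the first (1 irradiated and 4 control arrays) and -0.20 on the third (1 and 1), while the second held 4 irradiated ATM-/- arrays and 0 controls, so that scan day and dose largely cannot be told apart there. In Scid, Elane had 7.74, 6.89, 7.68, 5.75 and 6.93 at 3 Gy, against 6.78, 7.49, 6.99, 6.62 and 7.42 at 0 Gy. There the change was -0.06 (SE 0.53; limma, adjusted p = 0.986).

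Prtn3 was measured the other way in WT. Its level was 0.02, -0.97, -1.06, 1.22 and -0.19 at 8 Gy, against -2.79 to -0.66 with a median of -1.65 at 0 Gy, and 3 of 5 irradiated arrays lay above every control. Its processed signal was 73.7 to 322 at 8 Gy and 9.08 upward at 0 Gy, where 3 of 6 arrays were not well above background. The change was 1.39 (SE 0.45; limma, adjusted p = 0.0551), just outside the threshold of 0.05, beside 1.14% of all genes called higher in WT. It passed, higher, under 5 of 16 other settings, and when any of 4 WT arrays was left out (replicates 2 and 3 at 8 Gy, 1 and 2 at 0 Gy; limma, adjusted p from 0.0338 to 0.204 over all leave-outs). Within scan days the difference was 0.97 on the first and 2.07 on the second.

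In ATM-/- the Prtn3 level was -1.56 to -0.01 with a median of -0.81 at 4 Gy, against -1.02, -1.15, -0.53, -0.94 and -1.48 at 0 Gy, a change of 0.27 (SE 0.45; limma, adjusted p = 0.896). In Scid it was -0.18, -1.45, 0.33, 0.70 and 0.09 at 3 Gy, against -0.76, -0.89, 0.33, -0.79 and -2.07 at 0 Gy, a change of 0.73 (SE 0.47; limma, adjusted p = 0.682). The groups overlapped in both.

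The difference between these neighbouring genes within an array does not depend on the factor by which the array is scaled. It was looked at after the values were seen and is given without a test. The log2 level of Prtn3 minus that of Elane averaged -5.48 ± 1.34 (SD, n = 5) in WT at 8 Gy and -7.86 ± 1.04 (SD, n = 6) at 0 Gy. It averaged -5.74 ± 0.81 (SD, n = 6) in ATM-/- at 4 Gy and -7.38 ± 0.57 (SD, n = 5) at 0 Gy, where all 6 irradiated arrays (-6.23 to -4.20) lay above every control (-7.88 to -6.71). Prtn3 was not well above background on 2 of those 6 irradiated arrays and on 3 of the 6 WT controls, where the difference is only a bound, and the other 4 irradiated ATM-/- arrays also lay above every control. Of the 6 irradiated ATM-/- arrays, 4 were scanned on the second day, which held 0 ATM-/- controls, so scan day and dose largely cannot be told apart. How many other gene pairs separate as fully was not counted. In Scid the difference averaged -7.10 ± 1.28 (SD, n = 5) at 3 Gy and -7.90 ± 1.09 (SD, n = 5) at 0 Gy, with overlapping arrays. The irradiated minus control differences were 2.38, 1.64 and 0.79 in WT, ATM-/- and Scid. With another background correction (normexp) the WT difference was -0.09, while the ATM-/- difference was 1.83. The normexp setting also added an offset of 50 to every signal, while the Prtn3 signal was 9.08 to 51.8 on the WT 0 Gy arrays. The direction in WT thus depended on this setting, under which the Elane change in WT was 0.49. The parts of the correction, of the offset and of either gene in this reversal were not tested.

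The nearest patterns of the pair also differed. The Elane signal ran with Pmf1, a kinetochore protein gene (r = 0.94), Lmx1b, a homeobox gene (r = 0.93), and Ank2, an ankyrin (r = 0.93), none of them a neutrophil gene, and with Camp (r = 0.72) and Ctsg (r = 0.61). Its r with the mature neutrophil markers was 0.04 and with array brightness -0.59. The genes nearest to Prtn3 were AI429363 (r = 0.86) and Oscp1 (r = 0.79). Prtn3 also ran with C1qb, a complement subunit of macrophages (r = 0.79), and Anxa3, an annexin (r = 0.77). Its r was 0.57 with the monocyte markers, 0.46 with Lyz2 and 0.07 with Elane. These correlations are over the same 32 arrays and share their scaling.

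Ctsg, cathepsin G, had levels of -2.07, -1.78, -0.36, -0.30 and -1.11 in WT at 8 Gy, against -1.49 to 0.05 with a median of -0.62 at 0 Gy, and the change was -0.45 (SE 0.48; limma, adjusted p = 0.626). In ATM-/- the level was -1.89 to -0.02 with a median of -1.02 at 4 Gy, against -1.10, -2.13, 0.21, -1.21 and 0.45 at 0 Gy, and the change was -0.21 (SE 0.48; limma, adjusted p = 0.929). In Scid it was 0.59, -0.25, -0.15, 0.05 and -0.04 at 3 Gy, against -0.04, -0.38, -0.58, -1.30 and 1.72 at 0 Gy, and the change was 0.16 (SE 0.50; limma, adjusted p = 0.961). The groups overlapped in every genotype. Its nearest genes, Efna4, an ephrin (r = 0.93), and Kif24, a kinesin (r = 0.92), were no granulocyte genes.

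Lyz2, the lysozyme of granulocytes, monocytes and macrophages, was bright in every group. Its level was 5.83, 4.21, 4.20, 6.33 and 5.37 in WT at 8 Gy, against 2.88 to 4.88 with a median of 3.85 at 0 Gy. The change was 1.31 (SE 0.52; limma, adjusted p = 0.133), with 3 of 5 irradiated arrays above every control. It passed, higher, under 6 of 17 other settings, the authors' own values among them (1.74; limma, adjusted p = 0.0410).

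In ATM-/- the Lyz2 level was 1.83 to 6.04 with a median of 4.90 at 4 Gy, against 3.99, 4.35, 4.00, 4.13 and 2.94 at 0 Gy, with 4 of 6 irradiated arrays above every control and 1 below. The change was 0.62 (SE 0.52; limma, adjusted p = 0.719). In Scid it was 4.59, 5.25, 4.82, 5.25 and 5.37 at 3 Gy, against 4.06, 4.89, 5.12, 4.01 and 4.41 at 0 Gy, a change of 0.56 (SE 0.54; limma, adjusted p = 0.836).

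Among the genes nearest to Lyz2 were Ggh, gamma-glutamyl hydrolase (r = 0.90), Sdf4, a calcium-binding protein (r = 0.88), and Hexa, a hexosaminidase subunit (r = 0.87). Its r was 0.59 with the monocyte markers and -0.17 with those of mature neutrophils. Of 14 monocyte markers tested in WT, 2 were called higher and none lower, beside 1.14% of all genes called higher. The 2 were Ms4a6d (2.38, SE 0.58; limma, adjusted p = 0.00771) and Cd14, a lipopolysaccharide co-receptor (2.07, SE 0.53; limma, adjusted p = 0.0103). The median change of the 14 was 0.80, and 4 of them had changes below 0. The mean level of the list lay between 1.40 and 2.52 on the WT 8 Gy arrays, against 0.34 to 1.81 on the WT 0 Gy arrays. Lyz1, a close paralog of Lyz2 with which its probe may share RNA, changed by 0.76 (SE 0.38; limma, adjusted p = 0.245) in WT. The part of monocytes in the Lyz2 and Prtn3 values was not tested.

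**Figure D4:**
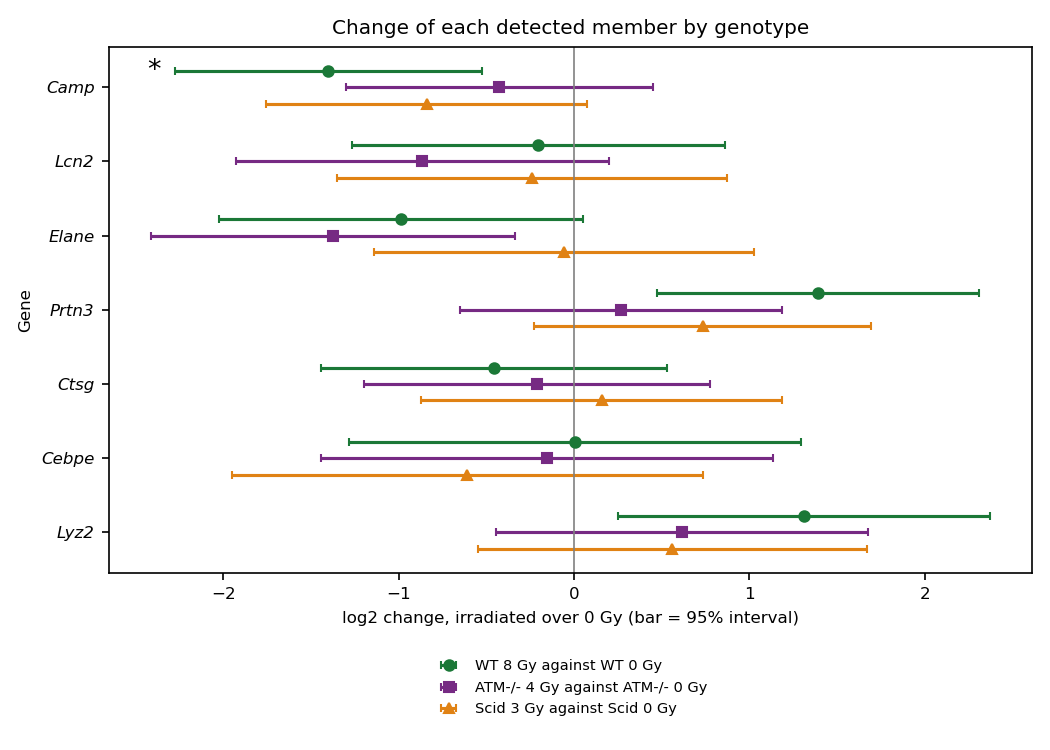
Log2 change of each detected member, irradiated over 0 Gy, in WT, ATM-/- and Scid blood (points; bars are 95% intervals; the star marks an adjusted p under 0.05). Only Camp in WT, at -1.40, is marked, and Prtn3 and Lyz2 in WT lie on the other side of 0.

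No member was called in ATM-/- (0.237% of all genes called; 1 member, Elane, at an unadjusted p under 0.05) or in Scid (1.06% of all genes called; 0 members at an unadjusted p under 0.05) by limma. The median change of the 7 members was -0.20 in WT, -0.21 in ATM-/- and -0.06 in Scid, against -0.02, -0.15 and 0.01 over all genes. Scaling to spike-in controls moved these values together with those of most genes: under it 6 of 7 members (all but Lyz2) were called lower in ATM-/-, where 12231 of 15158 genes were called.

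Between the genotypes at 0 Gy, no gene of the whole array was called by limma (0.0% in either comparison; 344 genes at an unadjusted p under 0.05 for ATM-/- against WT and 501 for Scid against WT). The members' changes ran from -0.43 (Cebpe) to 0.57 (Prtn3) in ATM-/- against WT, and from -0.21 (Cebpe) to 0.79 (Elane) in Scid against WT, with 0 members at an unadjusted p under 0.05. The irradiation responses of the genotypes did not differ by limma for any gene either (0.0%; 1295 genes at an unadjusted p under 0.05 for ATM-/- minus WT and 1082 for Scid minus WT). Other settings gained calls, 36 genes for ATM-/- minus WT with slide as a block and 20 for Scid minus WT with array weights, with 0 members in either. For the members, the response in ATM-/- minus that in WT ran from -1.13 (Prtn3, 95% interval -2.42 to 0.17) to 0.98 (Camp, -0.26 to 2.21). The response in Scid minus that in WT ran from -0.75 (Lyz2, -2.28 to 0.78) to 0.93 (Elane, -0.57 to 2.42). These intervals do not exclude differences of the size seen within WT, and both comparisons share the WT arrays. The call of Camp in WT alone therefore shows neither a difference between genotypes nor the lack of one.

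Of 18 other granule genes tested, 1 rose in WT, beside 1.14% of all genes called higher, and none fell. Slpi, a protease inhibitor that acts on elastase and cathepsin G, rose by 1.73 (SE 0.45; limma, adjusted p = 0.0118). The median change of the list was -0.22 in WT, 0.03 in ATM-/- and -0.28 in Scid, and in both mutants 0 were called. S100a9, a calprotectin subunit that is abundant in neutrophils, changed by -1.40 (SE 0.59; limma, adjusted p = 0.372) in Scid and by 0.20 (SE 0.56; limma, adjusted p = 0.943) in ATM-/-. Of 12 granulocyte transcription factors and receptors tested, none was called in any of the 3 genotypes, and Csf3r, the receptor of granulocyte colony-stimulating factor, changed by 0.80 (SE 0.67; limma, adjusted p = 0.529) in WT.

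The 15 mature neutrophil markers likewise had no call, with a median change of -0.30 in WT, -0.06 in ATM-/- and -0.49 in Scid. Their mean level spanned 2.28 to 3.60 on the WT 8 Gy arrays, against 2.22 to 3.30 at 0 Gy. It spanned 2.43 to 4.32 on the ATM-/- 4 Gy arrays, against 2.51 to 4.32 at 0 Gy, and 1.34 to 3.71 on the Scid 3 Gy arrays, against 2.21 to 3.50 at 0 Gy. The groups overlapped in each genotype. The 9 of 15 eosinophil, basophil and mast cell markers that passed the filter had no call in the 3 genotypes either, and Epx and Prg2, which define eosinophils, were not kept.

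In the same WT arrays, lists of other cells moved by more. Of 15 proliferation genes tested, 7 fell, among them Nusap1, a spindle protein gene (-4.01, SE 0.45; limma, adjusted p = 4.53e-07), and 4 of 11 B cell markers fell, led by Vpreb3, a gene of B cell precursors (-4.35, SE 0.56; limma, adjusted p = 2.79e-06). In ATM-/-, 1 member of either list was called lower, and in Scid 1 proliferation gene and 0 B cell markers were. Of all genes, 6.06% were called lower in WT, and 0.237% and 1.06% were called in ATM-/- and Scid. The median change of the proliferation genes was -0.49 in WT, -0.58 in ATM-/- and -0.93 in Scid. That of the B cell markers was -1.24, -1.70 and -0.65, so fewer calls in the mutants did not go with smaller median changes throughout. At 0 Gy the mean level of the B cell markers had a median of -1.32 in Scid, against 0.79 in WT and 1.89 in ATM-/-. The lack of B cell marker calls in Scid therefore does not show a weaker response there.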

How the data were processed

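The authors deposited 1 scanner table per array. Its processed signal is an intensity from which Agilent Feature Extraction (12.0.2 per the submitters' processing notes, 11.5.1.1 per the file headers) had removed background and spatial trend, with no scaling across arrays. The authors also deposited log2 values of the same arrays, of which 98.6 to 99.7% per array equalled the log2 of that signal, shifted by 1 constant per array, to within 0.01. Their direction and scale are thus known, the choice of the constant (column medians 5.51 to 6.44) is not, and they served as an alternative. Arrays were grouped by genotype and dose in the labels, 1 mouse each. Their number limits the precision.

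Control spots and non-uniform outlier spots (at most 96 per array) were left out, log2 signals were set to each array's 75th percentile, and a probe was kept if flagged well above background on 4 or more arrays in a group (18368 of 39429). Each of the 15158 genes was represented by its brightest kept probe. Group means of all 32 arrays were fitted with limma 3.58.1 in R 4.3.3. Two-sided p-values were corrected over all genes by the Benjamini-Hochberg method, with calls under 0.05, and the fit was tested on simulated data. Likeness is Pearson's r over 32 arrays, given without a test. All 10 members are named. Of each list up to 3 called genes of largest change or else the 2 brightest were to be named, and the text names fewer. Other genes named, among them Il24, Lyz1 and Epx, and the 7-base run were chosen after their values were seen. The members and lists were chosen with earlier results of these data known. Python 3.11.15 with numpy 2.4.6, pandas 2.3.3 and matplotlib 3.10.9 did the rest. Some genes near Camp or Lyz2 in pattern are not reported here.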

Additional observations from a re-analysis of the deposited data

Results flagged for a closer look

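Within groups, the gap between the highest or lowest array and its nearest neighbour was tested with Dixon's 95% critical values over 72 groups of 1 probe each, and 5 stood out, where chance flags about 1 in 20 groups. Camp in WT at 8 Gy was lowest on replicate 1 at a log2 level of -0.32, with the next array at 0.97. That array was among those bright for liver transcripts. Mpo in ATM-/- at 4 Gy was highest on replicate 6 at -0.71, with the next at -3.46, in a group in which 0 of 6 arrays passed the detection flag for this probe. Cebpe was lowest in ATM-/- at 4 Gy on replicate 2, at -3.08 with the next at -0.69, and lowest in Scid at 0 Gy on replicate 4, at -2.10 with the next at 0.07. Lyz2 in ATM-/- at 0 Gy was lowest on replicate 5 at 2.94, with the next at 3.99. No member moved one way on every array of 1 irradiated genotype and the opposite way on every array of another.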

How the results depend on the processing

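In WT, 1 member was called in the fit as reported (Camp, lower). Under normexp, quantile or array median scaling 1 was called, but higher (Lyz2, Lyz2 and Prtn3). The percentile over probes detected on all arrays, the spike-in scaling and the authors' values gave 2 (Prtn3 and Lyz2, both higher), and array weights 3 (Camp lower, Prtn3 and Lyz2 higher). With no filter on dim probes, slide or scan day as a block, only the groups compared, brightness as a covariate or the liver-bright arrays left out, 0 were called. With the replicate block 0 members were called in WT, and Camp changed by -1.20 (limma, adjusted p = 0.103). Replicate numbers did not pair the arrays (correlations of same-numbered deviations from -0.72 to 0.35), so the replicate block is only a check. Leaving out 1 array gave 0 to 2 calls in WT. In ATM-/- the count was 0, with 6 (lower) under the spike-in scaling and 1 (Elane, lower) with brightness as a covariate. For the response in ATM-/- minus WT it was 0, with 7 (lower) under the spike-in scaling, which called 14062 of all 15158 genes. No other count of called members changed. By the rule of 4 arrays in a group, 7 members were detected with the flag used here and 10 with the positive and significant flag.

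Of 480 recomputed log2 changes named in the text, 38 had the opposite sign. In WT, Lcn2 was 1.12 under normexp, 0.15 quantile, 0.14 array median, 0.23 percentile of detected probes, 1.08 spike-in, 0.10 slide block, 0.11 scan day block, 0.013 replicate block, 0.23 authors' values and 0.13 brightness. Elane in WT was 0.49 normexp, 0.29 spike-in and 0.10 brightness, Ctsg 0.82 spike-in and 0.080 brightness, and Cebpe -0.68 array weights and -0.73 without the liver-bright arrays. In ATM-/-, Cebpe was 0.10 (percentile of detected probes) and 0.15 (scan day block), Ctsg 0.041 (percentile of detected probes), and Lyz2 -1.07 and Prtn3 -1.42 (spike-in). In Scid, Elane was 0.20 quantile, 0.13 percentile of detected probes, 0.27 spike-in and 0.21 brightness, Ctsg -0.0635 array median and -0.12 scan day block, Cebpe 0.085 normexp and 0.14 slide block, and Lcn2 0.090 spike-in. At 0 Gy, Cebpe was 0.049 (normexp) in ATM-/- against WT and 0.11 (array weights) in Scid against WT. For ATM-/- minus WT, Camp was -0.019 normexp, -1.99 spike-in and -0.14 brightness, and for Scid minus WT, Elane was -0.57 normexp and -0.024 spike-in. Prtn3 minus Elane in WT was -0.092 under normexp. Leaving out 1 array at a time, the sign changed for Cebpe in WT (-0.42 to 0.29), ATM-/- (-0.58 to 0.39) and Scid against WT at 0 Gy (-0.43 to 0.26), Ctsg in ATM-/- (-0.56 to 0.089) and Scid (-0.14 to 0.62), Elane in Scid (-0.24 to 0.25) and Lcn2 in WT (-0.65 to 0.045). The cause of these changes was not tested. The population outlier, brightness and liver-bright settings were added after seeing the data. The median r with Camp of genes whose probe holds the run was 0.63 with array median scaling, 0.75 without scaling and 0.73 from deviations from the group means, against -0.01, 0.47 and 0.09 for the other genes. Over all genes, 1092 were called in WT and 372 to 4134 under the other settings, 36 and 0 to 12231 in ATM-/-, and 160 and 0 to 1171 in Scid, the highest in WT and ATM-/- under the spike-in scaling. Background limited Ngp, Ltf and Mpo, and in part Prtn3, Ctsg and Cebpe.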
